A study of Mus musculus and Rattus norvegicus with 85 samples.

Results

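The alpha class glutathione transferases were read as every probe set that the array annotation gives to Gsta1, Gsta2, Gsta3 or Gsta4. There were 9 such probe sets of 76200, 5 of 45101 on the mouse array and 4 of 31099 on the rat array, and all 9 passed the filter on low signal. In the mouse, Gsta2 and Gsta4 had a probe set each and Gsta3 had 2, a brighter and a dimmer one. The remaining mouse probe set is annotated to Gm3776, Gsta2 and Gsta1 together and is called the shared mouse probe set, and no mouse probe set carried Gsta1 alone. In the rat, Gsta1, Gsta3 and Gsta4 had a probe set each, and the shared rat probe set is annotated to Gsta5 and Gsta2. The signal of the 2 shared probe sets cannot be given to 1 gene, and probe sets of such similar genes can also bind RNA of a relative. The identifiers of all 9 stand in the titles of the plots of values by concentration.

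The study measured RNA of the right lung of female B6C3F1/Crl mice and female F344/NCrl rats (written F334/NCrl in the sample labels) that breathed chloroprene, a volatile chlorinated diene, by whole-body inhalation for 6 hours a day on 5 days a week. Animals were 10 weeks old when exposure began and were killed after 5 exposure days or, on day 19, after 15 exposure days. Mice breathed 0 (air), 0.3, 2, 13 or 90 ppm in the 5-day groups and the same concentrations without 0 ppm in the 15-day groups. Rats breathed 5, 30, 90 or 200 ppm at both times. Each of the 17 groups had 5 animals with 1 array per animal, 45 mouse and 40 rat arrays in all. No 0 ppm mouse group after 15 days and no 0 ppm rat group was analysed here, so the lowest concentration (0.3 or 5 ppm) serves as reference there and any response to it is invisible. The labels give each array its own animal number, so p-values measure the spread between animals.

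Glutathione transferases join the thiol of glutathione to electrophiles, which makes them easier to export and spares proteins and DNA. Enzymes of the alpha class also reduce lipid hydroperoxides, and GSTA4 is known for its preference for 4-hydroxynonenal, an aldehyde made when lipids are oxidised. The genes are best known from liver, and in airway and lung they are among the genes that the transcription factor NRF2 can induce through antioxidant response elements in their promoters. Chloroprene is oxidised by cytochrome P450 enzymes to an epoxide, which is a substrate for glutathione conjugation.

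The deposited log2 signals put several members among the brighter probe sets of these lungs. The mean over all arrays of a species was 12.36 for the brighter mouse Gsta3 probe set and 12.30 for mouse Gsta4, at the 97.7th and 97.6th percentile of all probe sets. Mouse Gsta2 averaged 10.49, the shared mouse probe set 9.91 and the dimmer Gsta3 probe set 9.06. Rat Gsta1 averaged 12.50 and rat Gsta4 12.21, at the 98.8th and 98.5th percentile, whereas rat Gsta3 averaged 7.93 and the shared rat probe set 7.40, at the 59.6th and 51.6th. These are signals of separate probe sets and do not order the genes by their amount of RNA.

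The mouse promoters are shown because the members are textbook NRF2 targets, and their part in the responses was not tested. The 250 bases before the transcription start (RefSeq, build GRCm38.p6) were searched on both strands for TGACNNNGC, the core of the antioxidant response element. The table used held 3 of the 4 mouse genes and no rat genes; Gsta4 was not in it. Capitals mark the match.
Gsta1, chr9:78230419-78230668, plus strand: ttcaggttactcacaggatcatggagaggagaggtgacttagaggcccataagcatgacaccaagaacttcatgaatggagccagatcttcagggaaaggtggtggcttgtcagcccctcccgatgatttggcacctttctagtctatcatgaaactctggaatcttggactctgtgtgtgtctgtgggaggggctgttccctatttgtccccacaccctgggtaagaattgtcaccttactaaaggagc
Gsta2, chr9:78347146-78347395, minus strand: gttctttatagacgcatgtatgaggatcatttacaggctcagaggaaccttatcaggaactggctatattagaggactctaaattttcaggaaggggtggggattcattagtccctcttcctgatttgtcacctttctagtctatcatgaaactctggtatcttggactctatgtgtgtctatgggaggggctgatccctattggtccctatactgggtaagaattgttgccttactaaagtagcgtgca
Gsta3, chr1:21240335-21240584, plus strand: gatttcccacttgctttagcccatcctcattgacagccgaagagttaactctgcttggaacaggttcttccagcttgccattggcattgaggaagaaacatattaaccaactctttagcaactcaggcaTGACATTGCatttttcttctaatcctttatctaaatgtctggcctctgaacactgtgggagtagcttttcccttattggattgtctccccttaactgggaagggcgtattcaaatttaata
The Gsta3 window held 1 match on the strand shown, TGACATTGC, 121 to 113 bases before the start. The windows of Gsta1 and Gsta2 held 0, which says only that these letters are not in these windows. The motif was in 3338 of 32851 promoter windows of this length (10.2%), so a match is a description and not a site. The Gsta1 and Gsta2 windows were identical at 184 of 239 aligned bases (77.0%). In the RefSeq gene order Gsta4, Gsta1 and Gm3776 are neighbours on chromosome 9. Gsta2 is not next to them but lies on the same chromosome, near Gsta1 by the coordinates above. Gsta3 lies on chromosome 1.

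Some arrays stood apart for these genes. Mouse 128, of the 0.3 ppm group after 15 days, was the highest of its group on all 5 member probe sets, and mouse 137, of the 2 ppm group after 5 days, was the highest of its group on all 5. Mouse 149, of the 13 ppm group after 5 days, was the lowest of its group on all 5, as was mouse 117 of the 0.3 ppm group after 5 days. Values without them are given beside some of the results they touch, mainly where a call changed.

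Mouse Gsta2 rose with concentration at both times. After 5 days the air-exposed mice read 9.24, 9.35, 9.40, 9.74 and 9.80, and the mice at 90 ppm read 11.50, 11.56, 11.60, 11.78 and 11.85. The groups did not overlap, and the change was 2.15 ± 0.15 on the log2 scale (± SE of the fit, n = 5 per group, 4.44-fold, adjusted p = 7.4e-14). Between them, the mice at 0.3 ppm read 9.14, 9.49, 9.88, 9.94 and 10.02, across the range of the controls and slightly beyond it. Those at 2 ppm read 10.16, 10.20, 10.27, 10.44 and 10.55, all above every control, and those at 13 ppm read 10.55, 10.71, 11.02, 11.05 and 11.13. The steps against air were 0.19 ± 0.15 at 0.3 ppm (adjusted p = 1.00), 0.82 ± 0.15 at 2 ppm (adjusted p = 0.0034) and 1.39 ± 0.15 at 13 ppm (adjusted p = 4.0e-08). Gsta2 was thus past the threshold from 2 ppm upward.

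After 15 exposure days the reference mice at 0.3 ppm read 9.35, 9.41, 9.42, 9.69 and 10.16 for Gsta2, where the high value is mouse 128. Mice at 2 ppm read 9.89, 10.00, 10.06, 10.08 and 10.51, and those at 13 ppm 10.72, 10.91, 10.92, 10.98 and 11.07. At 90 ppm the values were 11.51, 11.59, 11.66, 11.84 and 11.98, above every lower group. The change against 0.3 ppm was 0.50 ± 0.15 at 2 ppm (adjusted p = 0.89), 1.31 ± 0.15 at 13 ppm (adjusted p = 1.6e-07) and 2.11 ± 0.15 at 90 ppm (adjusted p = 1.7e-13).

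The shared mouse probe set (Gm3776, Gsta2 and Gsta1) had the largest change of the 5 in the mouse. It read 8.39, 8.47, 8.73, 8.83 and 8.89 in air and 11.22, 11.38, 11.43, 11.45 and 11.64 at 90 ppm after 5 days, a difference of 2.76 ± 0.18 (6.79-fold, adjusted p = 4.0e-15). At 2 ppm it read 9.30 to 9.86, with a change of 0.88 ± 0.18 (adjusted p = 0.0076), and at 13 ppm 9.79 to 10.71, with a change of 1.70 ± 0.18 (adjusted p = 1.3e-08). After 15 days it read 8.42, 8.55, 8.72, 8.80 and 9.44 at 0.3 ppm and 11.08, 11.22, 11.42, 11.68 and 11.75 at 90 ppm, a difference of 2.65 ± 0.18 (6.26-fold, adjusted p = 2.4e-14). At neither time did the 90 ppm mice overlap the reference mice. Which of the 3 genes carried this rise cannot be told from the probe set.

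**Figure D1:**
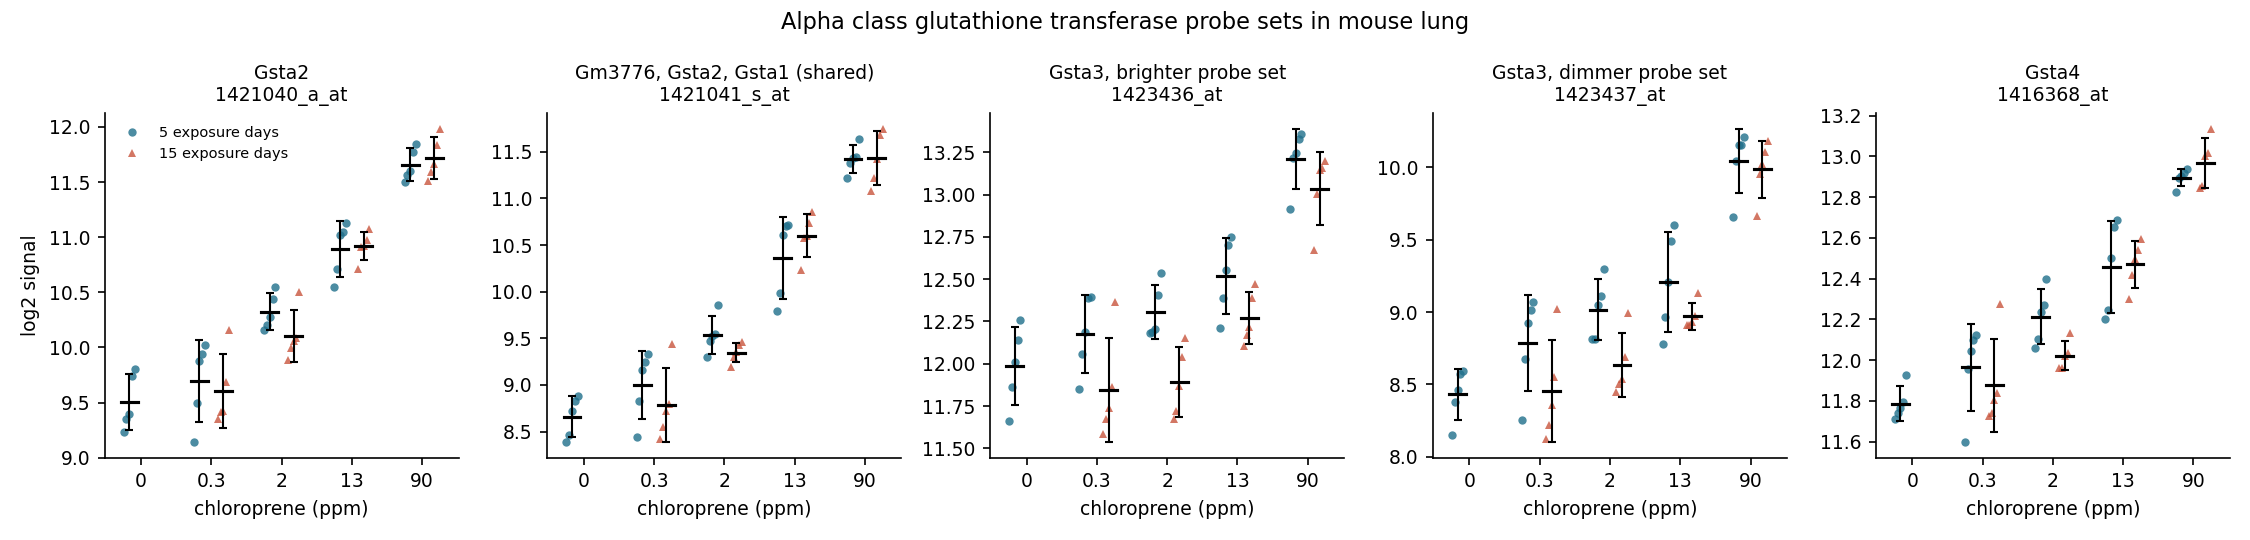
Log2 signal (vertical axis, a separate scale in each panel) of the 5 member probe sets in mouse lung against chloroprene concentration in ppm (horizontal axis, evenly spaced groups). Circles are animals after 5 and triangles after 15 exposure days, and black bars are means ± SD of 5 mice; in every panel the 90 ppm mice lie above all reference mice of their time.

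Gsta3, whose product is an alpha class enzyme abundant in mouse lung and liver, rose less than Gsta2. By the brighter probe set the air-exposed mice read 11.66, 11.86, 12.01, 12.14 and 12.26 and the 90 ppm mice 12.91, 13.21, 13.25, 13.33 and 13.36, a change of 1.23 ± 0.13 (2.34-fold, adjusted p = 9.7e-09). By the dimmer one the same animals read 8.15, 8.38, 8.46, 8.57 and 8.59 and then 9.66, 10.05, 10.15, 10.15 and 10.21, a change of 1.61 ± 0.16 (3.06-fold, adjusted p = 4.3e-10). Both probe sets of the gene showed the rise, without overlap of the groups.

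Below 90 ppm the 2 Gsta3 probe sets differed in which changes passed. At 2 ppm after 5 days they were 0.32 ± 0.13 by the brighter (adjusted p = 0.32) and 0.59 ± 0.16 by the dimmer probe set (adjusted p = 0.064, without overlap of the groups). At 13 ppm after 5 days they were 0.53 ± 0.13 (adjusted p = 0.040, with the groups overlapping) and 0.78 ± 0.16 (adjusted p = 0.0039). The first of these 2 calls was lost without a filter (adjusted p = 0.055), with quantile normalization (0.056) and when any 1 of 8 of the 10 mice was left out (0.050 to 0.18). Both 13 ppm calls were lost with RNA quality as a covariate (0.32 and 0.63, adjusted p = 0.79 and 0.46), a fit that keeps only 2 of the 5 air controls. Both were also lost against the 0.3 ppm mice in place of air (0.34 and 0.42, adjusted p = 0.93 and 0.79). After 15 days the 13 ppm changes of 0.42 ± 0.13 and 0.52 ± 0.16 missed the threshold (adjusted p = 0.50 and 0.39), and without mouse 128 they were 0.55 and 0.66 and passed it (adjusted p = 0.034 for each).

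At 90 ppm after 15 days Gsta3 rose by both probe sets again. By the brighter probe set the 0.3 ppm mice read 11.58, 11.68, 11.74, 11.86 and 12.37 and the 90 ppm mice 12.67, 13.00, 13.15, 13.16 and 13.20, a change of 1.19 ± 0.13 (2.28-fold, adjusted p = 2.9e-08). By the dimmer one the values were 8.12, 8.22, 8.35, 8.55 and 9.02 and then 9.66, 9.95, 10.02, 10.10 and 10.18, a change of 1.53 ± 0.16 (2.89-fold, adjusted p = 2.4e-09). The groups did not overlap by either probe set.

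Gsta4, the gene of the enzyme that favours 4-hydroxynonenal, had the smallest standard error of the mouse members. It read 11.71, 11.74, 11.76, 11.79 and 11.93 in air and 12.82, 12.89, 12.90, 12.92 and 12.94 at 90 ppm after 5 days, a change of 1.11 ± 0.10 (2.16-fold, adjusted p = 3.3e-11). At 2 ppm the 5 mice read 12.06 to 12.40, all above the controls, with a change of 0.43 ± 0.10 (adjusted p = 0.027), and at 13 ppm 12.20 to 12.69, with a change of 0.67 ± 0.10 (adjusted p = 2.0e-05). After 15 days it read 11.72, 11.74, 11.80, 11.84 and 12.27 at 0.3 ppm and 12.84, 12.85, 13.00, 13.02 and 13.14 at 90 ppm, a change of 1.09 ± 0.10 (2.13-fold, adjusted p = 5.5e-11). At 13 ppm after 15 days the change was 0.59 ± 0.10 (adjusted p = 2.1e-04), and at 2 ppm it was 0.15 ± 0.10 (adjusted p = 1.00).

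Counted together, 0 of 5 mouse probe sets passed limma's test at 0.3 ppm against air (0% of all 28897 tested passed; 1 of 5 had an unadjusted p under 0.05). Without mouse 117 the changes there were 0.27 to 0.49, up from 0.18 to 0.36, and 0 of 5 passed (adjusted p from 0.46 to 0.92). At 2 ppm 3 of 5 rose, beside 0.516% of all tested. At 13 ppm 5 of 5 rose, beside 0.723%, and at 90 ppm 5 of 5, beside 6.46%. After 15 days, against 0.3 ppm, 0 of 5 passed limma's test at 2 ppm (2 of 5 had an unadjusted p under 0.05), beside 0.0727%. At 13 ppm 3 of 5 rose, beside 0.273%, and at 90 ppm 5 of 5, beside 3.45%. The median change of the 5 at 90 ppm was 1.61 after 5 and 1.53 after 15 days, where the median of all tested was -0.00 at each time.

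The calls at 2 ppm were the least firm. Without mouse 137, 1 of the 3 remained, and the Gsta4 call was lost when any 1 of 6 of the 10 mice was left out. Taken against the 0.3 ppm mice in place of the air controls 0 of 5 passed limma's test (3 of 5 had an unadjusted p under 0.05), beside 0.0484% of all tested, the changes then being 0.25 to 0.63 for the 3 that rose against air, and 3 of 5 passed at 13 ppm, beside 0.277%. With the RNA integrity number (RIN, a score of RNA degradation) as a covariate, 0 of 5 passed at 2 ppm, beside 0.0104% of all tested in that fit, and 2 of 5 at 13 ppm, beside 0.176%. Arrays without a RIN drop out of that fit, which leaves 2 of the 5 air controls and 3 of the 5 mice at 2 ppm. A lost call there can thus come from fewer arrays as well as from the covariate. At 2 ppm the changes with the covariate were 0.85 for Gsta2, 0.78 for the shared probe set and 0.39 for Gsta4, beside 0.82, 0.88 and 0.43 without it. Of the 5 rises at 90 ppm all kept the threshold in the fit with the covariate, with changes of 1.05 to 2.63 after 5 days.

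From one concentration to the next, the whole set moved between 13 and 90 ppm. After 5 days all 5 probe sets rose over that step, by 0.44 ± 0.10 (Gsta4) to 1.06 ± 0.18 (the shared probe set), beside 1.83% of all tested, and after 15 days all 5 rose, by 0.50 ± 0.10 (Gsta4) to 1.01 ± 0.16 (the dimmer Gsta3 probe set), beside 3.13%. From 2 to 13 ppm after 15 days 3 of 5 rose, beside 0.0761%: Gsta4 by 0.45 ± 0.10 (adjusted p = 0.049), Gsta2 by 0.81 ± 0.15 (adjusted p = 0.0078) and the shared probe set by 1.25 ± 0.18 (adjusted p = 3.5e-04). Without mouse 157 of the 13 ppm group, 1 of the 3 remained, and the Gsta4 call was lost when any 1 of 9 of the 10 mice was left out. Over the same step after 5 days 0 of 5 passed limma's test (3 of 5 had an unadjusted p under 0.05), beside 0.0104%, and without mouse 149 the shared probe set passed at 0.96 (adjusted p = 0.031).

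The time of exposure made no difference that passed the test. The change from 0.3 to 90 ppm was larger after 15 than after 5 days by 0.15 ± 0.21 for Gsta2, 0.23 ± 0.25 for the shared probe set, 0.15 ± 0.19 and 0.27 ± 0.22 for Gsta3, and 0.16 ± 0.14 for Gsta4. The adjusted p ran from 0.78 to 0.83, 0 of 5 passed limma's test, 0 had an unadjusted p under 0.05, and 0.0173% of all tested passed. Without mouse 117 the differences were 0.24 to 0.41 and 0 of 5 passed (adjusted p from 0.63 to 0.64). Most mice of both 15-day groups in this contrast carry 5 days in another label field, and the sample titles were followed. Without such mice 0 of 5 passed as well, with few animals left.

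In the rat, Gsta3 and Gsta1 rose at 200 ppm at both times, and Gsta4 and the shared probe set did not rise past the threshold. Gsta3 rose most: after 5 days it read 6.88, 7.07, 7.07, 7.28 and 7.33 at 5 ppm and 8.25, 8.46, 8.55, 8.60 and 8.71 at 200 ppm, a change of 1.39 ± 0.17 (2.62-fold, adjusted p = 6.3e-06). At 30 ppm the rats were scattered, at 7.09, 7.83, 7.91, 8.02 and 8.48, and at 90 ppm they read 7.72, 7.79, 7.85, 8.26 and 8.47. The change was 0.74 ± 0.17 at 30 ppm (adjusted p = 0.27) and 0.89 ± 0.17 at 90 ppm (adjusted p = 0.0028). The low value at 30 ppm was rat 234, without which the change was 0.93 and passed (adjusted p = 0.0096); it passed without rat 239 as well (0.70, adjusted p = 0.042).

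After 15 days rat Gsta3 read 7.20, 7.30, 7.47, 7.54 and 7.89 at 5 ppm, 7.48, 7.68, 7.86, 7.99 and 8.06 at 30 ppm, and 7.93, 7.94, 8.13, 8.18 and 8.25 at 90 ppm. At 200 ppm it read 8.26, 8.42, 8.55, 8.60 and 8.72, above every rat of the lower groups. The change against 5 ppm was 0.33 ± 0.17 (adjusted p = 0.18), 0.60 ± 0.17 (adjusted p = 0.064) and 1.03 ± 0.17 (2.04-fold, adjusted p = 0.0010) at 30, 90 and 200 ppm. At 90 ppm the groups did not overlap although the adjusted p missed the threshold.

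Rat Gsta1 was bright in every animal and rose by a smaller step. After 5 days it read 12.15, 12.15, 12.22, 12.29 and 12.34 at 5 ppm and 12.66, 12.68, 12.74, 12.79 and 12.81 at 200 ppm, a change of 0.51 ± 0.07 (1.42-fold, adjusted p = 4.3e-05). At 90 ppm the rats read 12.32 to 12.62, overlapping the 5 ppm rats, and the change was 0.25 ± 0.07 (adjusted p = 0.019), lost without rat 217 (adjusted p = 0.053), without rat 253 (0.051) and with the RIN as covariate (0.073). After 15 days it read 12.24, 12.28, 12.31, 12.36 and 12.51 at 5 ppm and 12.66, 12.76, 12.77, 12.78 and 12.85 at 200 ppm, a change of 0.42 ± 0.07 (1.34-fold, adjusted p = 0.0011). At 90 ppm after 15 days it read 12.54 to 12.65, above all 5 ppm rats, with a change of 0.26 ± 0.07 (adjusted p = 0.058).

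Rat Gsta4 did not rise. After 5 days it read 12.33, 12.37, 12.44, 12.45 and 12.46 at 5 ppm and 12.03, 12.07, 12.10, 12.20 and 12.22 at 200 ppm, so that every rat at 200 ppm lay below every rat at 5 ppm. It fell by 0.29 ± 0.09 (adjusted p = 0.021), a call lost without rat 268 (adjusted p = 0.051), in a comparison where the median of all tested probe sets was -0.06 and 22.3% passed as lower. At 30 and 90 ppm after 5 days it was at -0.24 ± 0.09 each (adjusted p = 0.36 and 0.060). After 15 days it read 12.20, 12.25, 12.28, 12.29 and 12.32 at 5 ppm and 11.73, 12.01, 12.23, 12.26 and 12.29 at 200 ppm, a difference of -0.16 ± 0.09 (adjusted p = 0.31) with overlapping groups.

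The shared rat probe set (Gsta5 and Gsta2) stayed between 7.29 and 7.64 on all 40 arrays. Its difference at 200 ppm was -0.05 ± 0.06 after 5 days (adjusted p = 0.48) and 0.07 ± 0.06 after 15 days (adjusted p = 0.49), with overlapping groups. The signal lay near the rat array medians of 7.25 to 7.32, and whether it exceeds background was not tested.

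**Figure D2:**
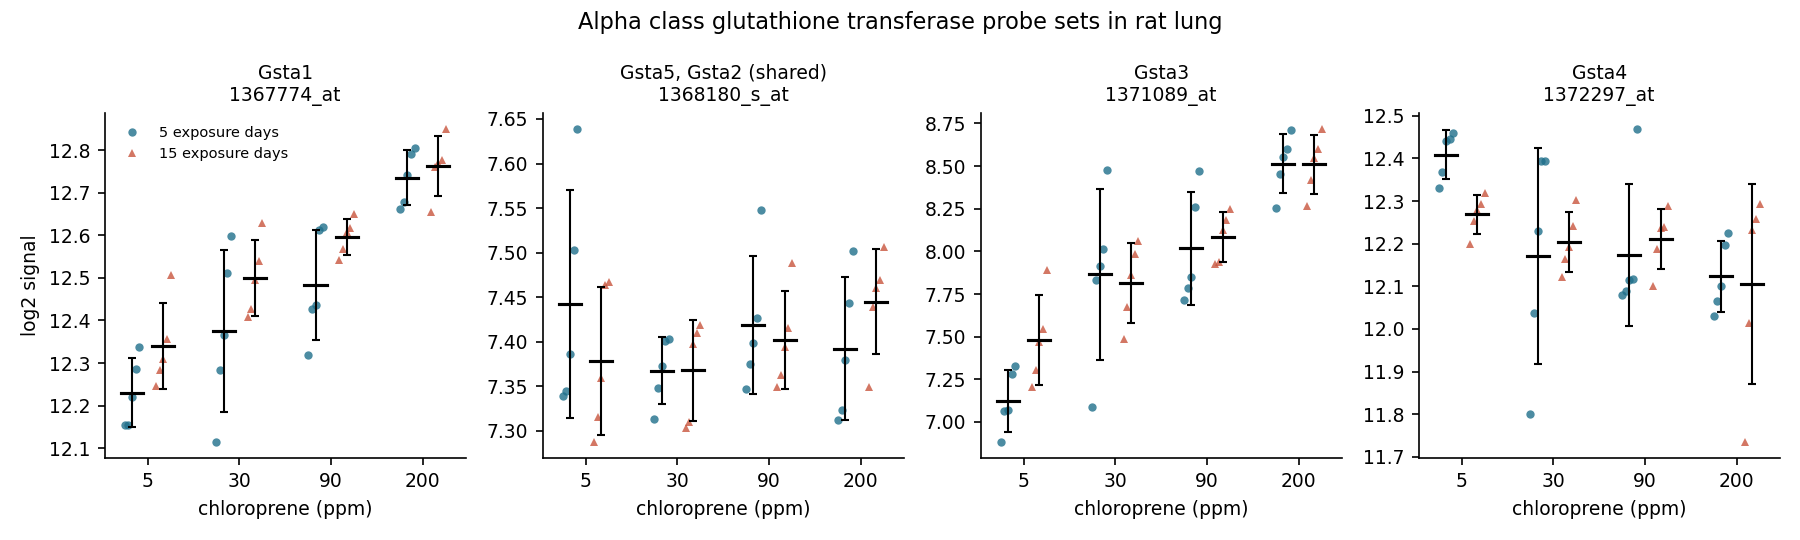
Log2 signal (vertical axis, a separate scale in each panel) of the 4 member probe sets in rat lung against chloroprene concentration in ppm (horizontal axis, evenly spaced groups). Circles are animals after 5 and triangles after 15 exposure days, and black bars are means ± SD of 5 rats; Gsta1 and Gsta3 at 200 ppm lie above all 5 ppm rats of their time, and Gsta4 at 200 ppm lies below them after 5 days.

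Of the 4 rat probe sets, 0 passed limma's test at 30 ppm after 5 days (3 of 4 had an unadjusted p under 0.05), beside 0.00503% of all 19893 tested in either direction. At 90 ppm 2 rose, beside 7.54% as higher, and at 200 ppm 2 rose and 1 fell, beside 8.54% as higher and 22.3% as lower. After 15 days 0 of 4 passed at 30 ppm (1 with an unadjusted p under 0.05) and 0 at 90 ppm (2), where 4.29% and 1.23% of all tested passed in either direction, and 2 rose at 200 ppm, beside 1.81%. The median change of the 4 at 200 ppm was 0.23 after 5 and 0.24 after 15 days, beside -0.06 and -0.00 for all tested. No step between neighbouring concentrations passed limma's test for any of the 4 at either time; 2 of 4 had an unadjusted p under 0.05 from 90 to 200 ppm after 5 days, 2 of 4 after 15 days, and 0 from 30 to 90 ppm at either time. From 30 to 90 and from 90 to 200 ppm 0% of all tested passed, except 2.46% from 30 to 90 ppm after 5 days. The step from 5 to 30 ppm is the comparison with the reference given above. The change from 5 to 200 ppm after 15 days minus that after 5 days was -0.08 ± 0.10 for Gsta1, 0.12 ± 0.08 for the shared probe set, -0.36 ± 0.24 for Gsta3 and 0.12 ± 0.13 for Gsta4; 0 of 4 passed, 0 had an unadjusted p under 0.05, and 5.29% of all tested passed in either direction.

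**Figure D3:**
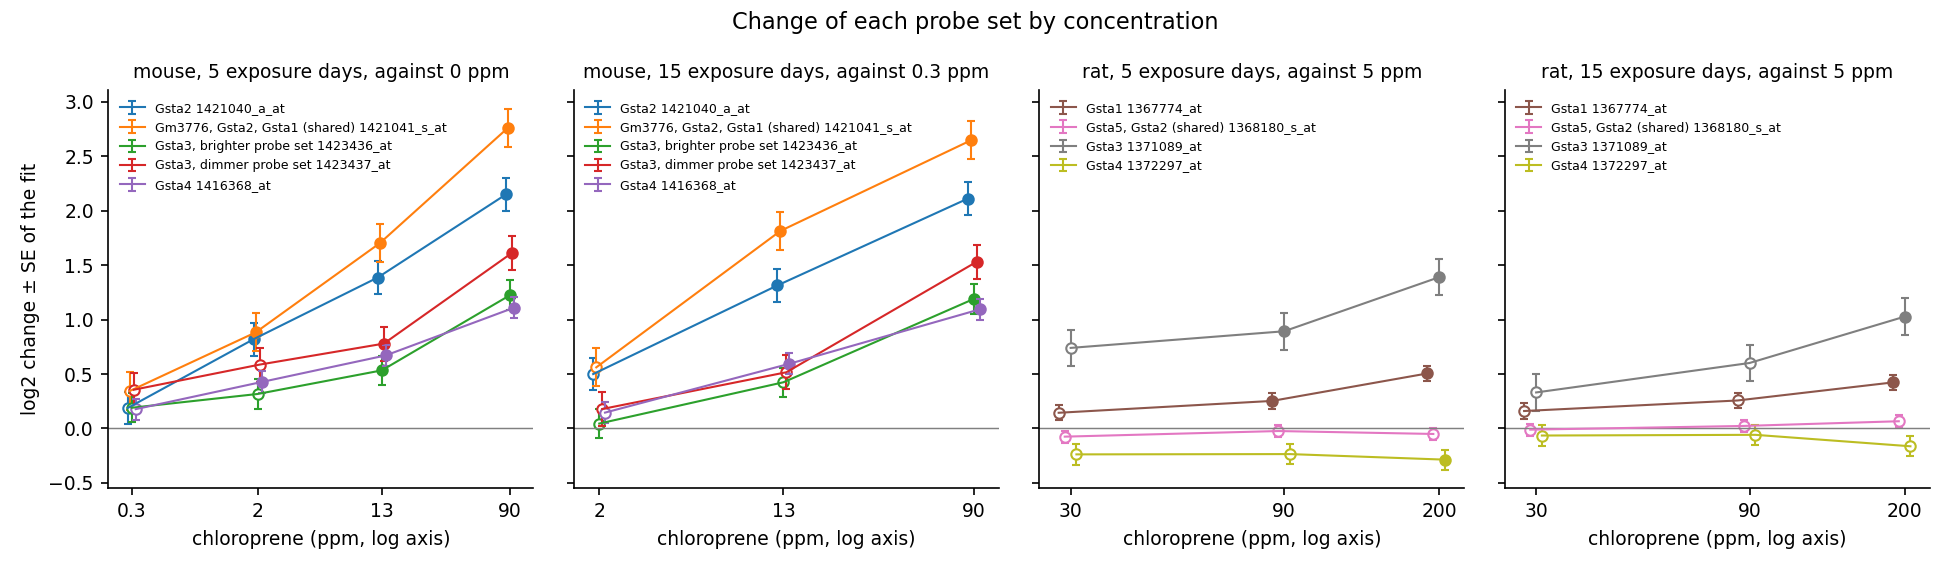
Log2 change ± SE of the limma fit (vertical axis) of each member probe set against chloroprene concentration in ppm (log axis), in 4 panels by species and time, each against the lowest concentration of that panel's series. Filled points passed an adjusted p of 0.05 and open points did not; at the highest concentration the mouse changes run from 1.09 to 2.76 and the rat changes from -0.29 to 1.39.

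The probe sets of the members did not change equally within a species. The comparison is between probe sets, and the 2 of mouse Gsta3 also changed unequally, by 1.23 and 1.61 after 5 days. The log2 difference between a pair of members within each array was compared between the highest concentration and the reference by exact permutation, two-sided, over 12 such comparisons; 0.00794 is the smallest p that 5 against 5 animals can give. In the mouse, Gsta2 rose more than Gsta3 (the brighter probe set) by 0.92 after 5 and 0.92 after 15 days, and more than Gsta4 by 1.04 and 1.02 (exact permutation p = 0.00794, adjusted p = 0.00952 for each). Gsta3 and Gsta4 differed by 0.12 after 5 days (SD of the within-array difference 0.14 at 90 ppm and 0.27 in air, exact permutation adjusted p = 0.42) and 0.10 after 15 days (SD 0.14 and 0.12, exact permutation adjusted p = 0.29), which did not exceed the spread between mice. Without mouse 177 the 15-day difference was 0.15 and passed (exact permutation adjusted p = 0.035). With the dimmer Gsta3 probe set in its place, a choice made after its values were seen, Gsta2 rose more than Gsta3 by 0.54 and 0.58 (exact permutation adjusted p = 0.0087 for each), and Gsta3 rose more than Gsta4 by 0.50 (exact permutation adjusted p = 0.016) and 0.44 (exact permutation adjusted p = 0.0087). Whether Gsta3 differed from Gsta4 thus depended on the probe set read, as did the size of the difference between Gsta2 and Gsta3.

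In the rat every pair of probe sets differed. Each gene of these pairs had 1 probe set, so differences between genes and between probe sets cannot be told apart. Gsta3 rose more than Gsta1, with Gsta1 minus Gsta3 at -0.88 after 5 and -0.60 after 15 days. Gsta1 exceeded Gsta4 by 0.79 and 0.59, and Gsta3 exceeded Gsta4 by 1.68 and 1.19 (exact permutation p = 0.00794, adjusted p = 0.00952 for each). In all 6 rat comparisons the 5 rats at 200 ppm did not overlap the 5 at 5 ppm. The species were exposed to different concentrations with different references, so their values stand side by side and were not compared.

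**Figure D4:**
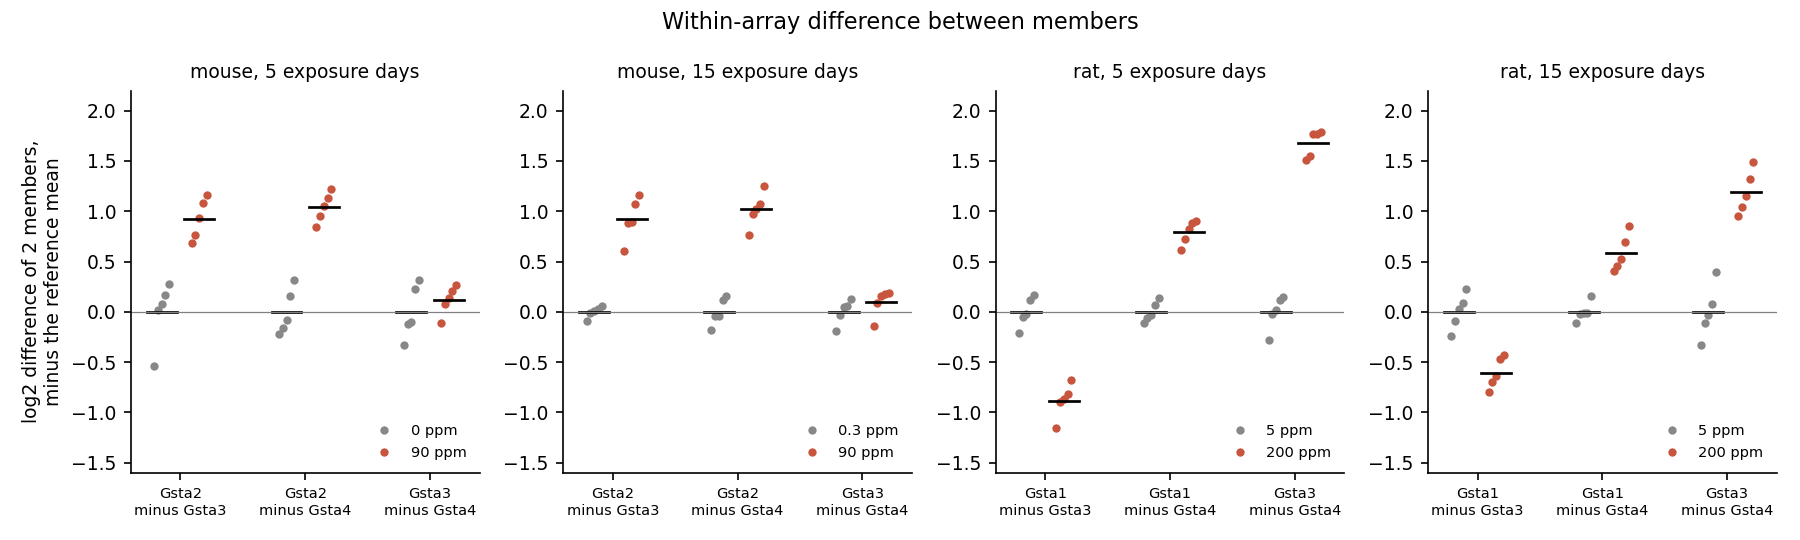
Difference in log2 signal between 2 members on the same array, minus the mean of the reference group (vertical axis), for 3 pairs in each of 4 panels by species and time; mouse Gsta3 is its brighter probe set. Grey points are animals of the reference concentration, red points those of the highest, and black lines are means of 5 animals; only the Gsta3 and Gsta4 pair of the mouse shows overlapping groups.

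The probe sets of other genes most like each member were found by the root mean square difference of centred group means, over 9 mouse or 8 rat groups, among all kept probe sets of 1 symbol; this is a description with no test, and the groups share their animals. For Gsta2 they were Gpx2, a glutathione peroxidase (0.178), Nqo1, a quinone reductase (0.182), Cbr3, a carbonyl reductase (0.189), the cystine transporter gene Slc7a11 (0.226) and the alcohol dehydrogenase gene Adh7 (0.247), where the median over all candidates was 0.807. For the shared mouse probe set they were Aldh3a1, an aldehyde dehydrogenase (0.144), Nqo1, Cbr3, the carboxylesterase gene Ces1g and Slc7a11. For Gsta4 they were the carbonyl reductase gene Cbr1 (0.0653), Gsto1, an omega class transferase (0.0701), the glucose transporter gene Slc2a1 (0.0742) and both probe sets of Entpd5 (median of candidates 0.419).

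For the Gsta3 probe sets, those of the brighter one were Fgfbp1 (0.105), Itih2, Meig1, the hemopexin gene Hpx and AU040972, and those of the dimmer one were the chemokine gene Cxcl17 (0.120), Fgfbp1, the aldo-keto reductase gene Akr1c14, Hpx and Gsto1. Fgfbp1 and Hpx were on both lists, and Gsto1 was also near Gsta4. In the rat, Gsta1 was nearest to Zyg11b (0.0390), Hap1 (0.0456), Gclm, the regulatory subunit of glutamate-cysteine ligase (0.0473), and both probe sets of Entpd5. Rat Gsta3 was nearest to Trim54 (0.0865), a gene of striated muscle, Akr1b8, an aldo-keto reductase (0.118), the muscle genes Tcap (0.163) and Myl4 (0.169) and Srxn1, sulfiredoxin (0.171). Rat Gsta4 was nearest to Fahd1 (0.0277), Klhdc2, Srgap2, LOC102548047 and Klhl17, where the median of candidates was only 0.125.

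Transferases of the other classes, which share the conjugation reaction, were read from a list. Of 17 measured transferases of other classes in the mouse, 8 rose and 0 fell at 90 ppm at each time, with a median change of 0.26, among them Gstm1 (0.54 ± 0.05 after 5 and 0.63 ± 0.05 after 15 days) and Gstm3 (0.62 ± 0.07 and 0.57 ± 0.07), both of the mu class, whose members are also alike enough to share signal. Of 16 in the rat, 2 rose and 1 fell at 200 ppm after 5 days, namely Gstm1 (0.44 ± 0.12), Gstp1 of the pi class (0.35 ± 0.13) and the microsomal Mgst2 (-0.23 ± 0.08). After 15 days 3 rose and 0 fell, Gstp1 (0.62 ± 0.13), Gstt2 (0.60 ± 0.13) and Gstm2 (0.43 ± 0.12). Of all probe sets tested, 6.46% and 3.45% passed as higher in the mouse after 5 and 15 days. In the rat 8.54% and 1.81% passed as higher, and 22.3% as lower after 5 days.

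Of 10 genes that supply glutathione, 6 rose in the mouse at 90 ppm after 5 days and 5 after 15 days, and 0 fell. In the rat at 200 ppm 2 of 10 rose after 5 days and 4 after 15 days, and 0 fell. Beside these stand 6.46% and 3.45% of all tested as higher in the mouse, and 8.54% and 1.81% in the rat. Gclc, the catalytic subunit of glutamate-cysteine ligase, rose in the rat by 0.75 ± 0.08 and 0.52 ± 0.08, Gclm by 0.45 ± 0.10 and 0.43 ± 0.10, and Gsr, glutathione reductase, by 1.14 ± 0.23 after 15 days. Of the 21 measured NRF2 targets outside glutathione synthesis, 17 rose in the mouse after 5 days and 15 after 15 days, and of 19 in the rat 6 rose at each time, with 0 falls. This list, like the others, was chosen with earlier results of these data known, so its counts only describe the genes chosen. Rat Akr1b8 rose by 1.08 ± 0.14 and 1.00 ± 0.14 and Nqo1 by 0.50 ± 0.10 and 0.64 ± 0.10.

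Of 8 genes that export conjugates or turn them into mercapturates, a list that shares Abcc1, Abcc4 and Ggt1 with the lists before it, 3 rose in the mouse after 5 days and 4 after 15, with 0 falls. They included the efflux pumps Abcc1 (0.64 ± 0.08 and 0.62 ± 0.08) and Abcc3 (0.62 ± 0.09 and 0.57 ± 0.09). In the rat Abcc4, an efflux pump, rose after 5 days (0.28 ± 0.08) while the aminoacylases Acy3 (-0.55 ± 0.14) and Acy1 (-0.36 ± 0.13) fell, 2 of 8 where 22.3% of all tested passed as lower. After 15 days Ggt1, the gamma-glutamyl transferase that starts the breakdown of conjugates, rose by 0.59 ± 0.13 and Abcc3 by 0.51 ± 0.12. Of 10 measured regulators of the class in the mouse, 2 rose at each time: Mafg, an NRF2 partner, by 0.57 ± 0.13 and 0.49 ± 0.13, Keap1, which holds NRF2 in check, by 0.37 ± 0.10 after 5 days, and Bach1, a repressor at the same elements, by 0.44 ± 0.12 after 15 days. Of 9 in the rat, Ahr, the aryl hydrocarbon receptor, rose after 5 days (0.89 ± 0.23), and Cebpb (0.55 ± 0.14) and Mafg (0.28 ± 0.07) after 15. As higher, 8.54% and 1.81% of all tested passed in the rat after 5 and 15 days, and 6.46% and 3.45% in the mouse.

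Markers of lung cell types moved in the same comparisons; in whole lung, fewer cells of a type and less RNA per cell cannot be told apart. The label of lung is borne out by alveolar type 2 markers, whose mean log2 signal was 13.79 to 14.12 in the mouse and 13.20 to 13.43 in the rat over the reference and highest groups. In the mouse, 5 of 13 club cell markers rose and 0 fell at 90 ppm at each time, and their mean signal per animal went from 12.70 to 13.00 in air to 13.10 to 13.33 after 5 days, and from 12.86 to 13.16 at 0.3 ppm to 13.16 to 13.38 after 15. Of 14 ciliated cell markers 10 rose after 5 days and 7 after 15 days, with means of 9.41 to 9.81 in air against 10.03 to 10.34. Of 11 lymphocyte markers 9 fell after 5 days and 1 after 15 days, with means of 8.81 to 8.93 in air against 7.66 to 8.15. At 90 ppm 6.46% and 3.45% of all tested passed as higher after 5 and 15 days. The share that passed as lower is not given here. At 2 ppm after 5 days, where Gsta2 and Gsta4 had passed, 0 of these club and ciliated markers passed, yet both means lay above all air controls, at 13.06 to 13.28 and 9.88 to 10.10. The part of these shifts in the rises of Gsta2, Gsta3 and Gsta4 was not tested. The club cell markers that rose after 5 days included Selenbp1 (0.65 ± 0.08) and Aldh1a1 (0.41 ± 0.06), and Scgb1a1, the defining secretory protein, was at -0.10 ± 0.04 (adjusted p = 0.063).

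Alveolar type 2, type 1 and macrophage markers fell in small numbers in the mouse, 3 of 10, 2 of 8 and 2 of 7 after 5 days and 2 of each after 15. These falls, too, stand without a share of all tested as lower. Of 5 measured hepatocyte markers, which would show liver RNA, 1 rose at each time (Tat), and Alb, albumin, was at 0.04 ± 0.10 after 5 and 0.07 ± 0.10 after 15 days. None of 7 cardiac muscle markers passed in the mouse.

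In the rat, 3 of 3 measured cardiac muscle markers rose at 200 ppm after 5 days, with a mean signal of 5.37 to 6.71 at 5 ppm against 6.04 to 8.81, and 0 of 3 after 15 days (5.42 to 7.94 against 6.45 to 9.23). Group means at 5, 30, 90 and 200 ppm were 6.08, 7.56, 7.91 and 8.07 after 5 days. After 15 days they were 7.17, 7.48, 7.86 and 8.01, so the 5 ppm group after 5 days was the lowest of all rat groups. The part of these markers in the rises of rat Gsta3 and Gsta1 was not tested. Rat 266, the only 200 ppm animal after 5 days whose cardiac mean (6.04) lay within the range of the 5 ppm rats, read 8.46 for Gsta3 and 12.74 for Gsta1, above every 5 ppm rat. After 15 days rats 279 and 281, the only 2 at 200 ppm within that range, with cardiac means of 6.45 and 6.90, read 8.55 and 8.60 for Gsta3. At the other end, rat 277 had the highest cardiac mean at 200 ppm after 15 days (9.23) and the highest Gsta3 of its group (8.72). Rat 268 had the highest cardiac mean at 200 ppm after 5 days (8.81) and the lowest Gsta3 of its group (8.25). The muscle genes Trim54, Tcap and Myl4 were among those nearest to rat Gsta3. These few rats were picked by their cardiac signal, no test was made with them, and nothing is concluded from them. Of 10 club cell markers 3 rose after 5 days and 0 after 15, and of 4 macrophage markers 2 fell and 0 fell. After 5 days 8.54% of all tested passed as higher and 22.3% as lower.

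RNA quality also differed between rat groups. The median RIN after 5 days was 8.3 at 5 ppm, 9.25 at 30 ppm, 9.2 at 90 ppm and 7.65 at 200 ppm, and after 15 days 9.3, 8.5, 8.4 and 8.2. With the RIN as a covariate, which drops the 2 rat arrays without one, the changes at 200 ppm were 1.34 ± 0.19 and 1.03 ± 0.18 for Gsta3, 0.52 ± 0.08 and 0.41 ± 0.08 for Gsta1 after 5 and 15 days, all 4 past the threshold, and -0.33 ± 0.10 for Gsta4 after 5 days (adjusted p = 0.028).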

How the data were processed

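Per the labels' protocols, right lung RNA (Trizol, then RNeasy) went onto Affymetrix Mouse430_2 or Rat230_2 arrays. Each deposited value is the log2 signal of a probe set on one array; how the authors summarised and normalised them is not given in the sources used here. Array medians were 7.27 to 7.37 (mouse) and 7.25 to 7.32 (rat). Sample titles gave each animal's group; for 9 mice another label field gives a different duration.

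Control probe sets (64 mouse, 57 rat) were left out, and 28897 mouse and 19893 rat probe sets above the 40th percentile of all values of the species (6.67 and 6.65) on 5 or more arrays were kept. Each species was fitted with limma 3.58.1 in R 4.3.3, a mean per group with empirical Bayes moderation, on all its arrays; each of 24 comparisons had a Benjamini-Hochberg adjustment across every kept probe set, two-sided, at 0.05. Precision is set by the 5 arrays per group: median standard errors were 0.106 (mouse) and 0.113 (rat). Pairs of members were compared by exact permutation (scipy 1.17.1), with Gsta3 of the mouse as its brighter probe set and shared probe sets left out. For list counts each gene was its kept probe set of 1 symbol with the highest mean.

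Named genes were the members, up to 3 rises and 3 falls by smallest p of each pathway list at the highest concentration, and the 5 probe sets of other genes nearest to each member that passed there; cell type markers named singly were chosen after their values were seen. The members and the 13 gene lists were chosen with earlier results of these data known. The closing section gives the alternatives.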

Additional observations from a re-analysis of the deposited data

Results flagged for a closer look

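In 3 of 77 groups of 5 animals a member had 1 animal far from the other 4, where chance flags about 1 in 20 groups. Rat Gsta4 after 5 days at 90 ppm read 12.47 in rat 253 while the next highest was 12.12 and the lowest 12.08; without that rat the change against 5 ppm was -0.31 and passed the threshold (adjusted p = 0.032). Mouse Gsta4 after 15 days at 0.3 ppm read 12.27 in mouse 128, with the next at 11.84 and the lowest at 11.72. The dimmer mouse Gsta3 probe set after 15 days at 13 ppm read 9.13 in 1 mouse, with the next at 8.97 and the lowest at 8.91. No change of a member differed between the 2 exposure times by the test of that difference.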

How the results depend on the processing

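All rises at the highest concentration kept their direction and the threshold in every alternative run for them (filtering at the 60th percentile or not at all, quantile normalization, 1 probe set per gene, the RNA integrity number as covariate, arrays of the same time, robust moderation with a trend in the variance, dropping mice whose duration fields conflict or whose numbers carry a letter, the 0.3 ppm reference for 5-day mice, and each animal left out); Gsta2 ran from 1.96 to 2.22 after 5 days and rat Gsta3 from 1.33 to 1.46. The fall of rat Gsta4 after 5 days was lost without 1 rat. With 1 probe set per gene, which tests 3 mouse members, the count was 3 for each mouse comparison that otherwise gave 5. The integrity covariate gave 0 members at 2 ppm and 2 at 13 ppm (mouse, 5 days) and 1 at 90 ppm (rat, 5 days), beside 0.0104%, 0.176% and 2.29% of all tested; the lost calls read 0.85 (Gsta2), 0.78 (shared) and 0.39 (Gsta4) at 2 ppm, 0.59 (Gsta4), 0.32 and 0.63 (Gsta3) at 13 ppm and 0.29 (rat Gsta1). The covariate fit kept 2 of the 5 air controls and 3 of the 5 mice at 2 ppm after 5 days. Arrays of the same time gave 1 for 13 against 2 ppm (mouse, 15 days) and 2 for 90 against 5 ppm (rat, 15 days), where the variance trend gave 1. The 0.3 ppm reference gave 0 at 2 ppm and 3 at 13 ppm after 5 days, beside 0.0484% and 0.277%. With the dimmer Gsta3 probe set, chosen after seeing the data, Gsta3 minus Gsta4 was 0.50 (5 days) and 0.44 (15 days) and passed. Why these counts moved was not tested.

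With each animal left out, counts ran from 1 to 3 (mouse 15 days, 13 against 2 ppm), 0 to 1 (mouse 5 days, 13 against 2 ppm), 1 to 3 (mouse 5 days, 2 against 0 ppm), 3 to 5 (mouse 15 days, 13 against 0.3 ppm), 0 to 1 (rat 5 days, 30 against 5 ppm), 0 to 2 (rat 15 days, 90 against 5 ppm, 2 without rat 228) and 1 to 2 (rat 5 days, 90 against 5 ppm). The Gsta3 and Gsta4 difference ran from 0.0336 to 0.195 (mouse, 5 days) and from 0.0489 to 0.155 (mouse, 15 days). The other sign changes were of uncalled values: without the lettered mice Gsta3 at 2 ppm after 15 days was -0.050 (brighter) and -0.023 (dimmer probe set), and the difference between times -0.0053 (Gsta2) and -0.010 (shared mouse probe set); with quantile normalization rat Gsta4 from 30 to 90 ppm was -0.00048 (5 days) and -0.0098 (15 days); with the integrity covariate the shared rat probe set from 90 to 200 ppm was 0.011 (5 days). Leaving out each animal, uncalled ranges crossed 0 for the brighter Gsta3 probe set (mouse 15 days, 2 against 0.3 ppm, -0.020 to 0.18), rat Gsta4 (15 days, 90 against 30 ppm, -0.014 to 0.034; 5 days, 90 against 30 ppm, -0.090 to 0.058; 5 days, 200 against 90 ppm, -0.076 to 0.023), the shared rat probe set (15 days, 30 against 5 ppm, -0.033 to 0.011; 5 days, 90 against 5 ppm, -0.056 to 0.026; 5 days, 200 against 90 ppm, -0.054 to 0.0054) and rat Gsta3 (5 days, 90 against 30 ppm, -0.042 to 0.31). Of the changes of single members, 1126 leave-one-out values kept call and direction, 28 lost the call, 8 gained it and 18 changed sign; in the other settings these were 818, 21, 5 and 7. No paired analysis was possible because no animal number is shared between groups.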
